A study of Mus musculus with 3 samples.

Results

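The miR-379/miR-410 cluster is a run of microRNA (miRNA) genes in the imprinted Dlk1-Dio3 domain of mouse chromosome 12. Its members were examined in small RNA sequencing of extracellular vesicles (EVs) from postnatal day 7 (PND7) mouse testis. Members were taken by name, as every mature or hairpin entry of a miRNA of the cluster, whatever its level. The rule found 99 entries, 49 mature and 50 hairpin, among 1347 mature and hairpin entries in all. They belong to 53 miRNA identifiers, where an identifier is 1 arm of 1 precursor. The data comprised 3 libraries of a single condition, each made from EVs pooled from 10 male C57/BL6 mice, so that no animal was measured alone and no untreated or other control was compared. The decapsulated testes were digested with Accumax, the cells were pelleted, and the EVs were purified from the supernatant, so the vesicles of germ cells and of somatic cells were collected together. They were treated with proteinase K and RNase A before the RNA was extracted. The titles of the libraries hold the word treated, and their source describes EVs isolated from testis.

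The Dlk1-Dio3 domain is imprinted, which means that its genes are read from only 1 parental chromosome. Its noncoding RNAs, among them the long RNAs Meg3, Rian and Mirg, C/D snoRNAs and the miRNAs of this cluster, are expressed from the maternal chromosome. The paternal copy is methylated at a control region, a mark that is set in the male germ line. Each precursor is cut to a hairpin, and either arm of it, named 5p or 3p, can be loaded into an Argonaute protein, where bases 2 to 8 (the seed) lead the pairing with target mRNAs. The cluster is best known from the brain, the placenta and the embryo, and mice without it adapt poorly to the metabolic demands of birth.

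The clean reads numbered 25716952, 26002463 and 27939308 in replicates 1, 2 and 3. Mature miRNA entries took 870967 to 1005836 counts per library and hairpin entries 493345 to 612122. Levels are given in CPM, counts per 1000000 mature (or hairpin) counts of the same library, and a mature count of 0 allows a level of up to 3.44, 2.98 and 3.10 CPM in replicates 1, 2 and 3. Mature members were 20 to 25 bases long and 1 read covers 1 molecule, so levels were not divided by length. A level is a share of the miRNA counts, and fewer vesicles of a cell type and less of the miRNA in each vesicle cannot be told apart. The 27 members with at least 10 mature counts in every library gave a chi-square per degree of freedom of 29.0 to 39.4 between pairs of libraries, so the libraries differed by far more than counting error and were kept as 3 replicates. Among markers of the cells a testis can hold, the gonadal miR-202 arms summed to 21203 to 29797 CPM, and the endothelial miR-126a-3p stood at 8693 to 16983 CPM. The neural miR-124-3p was at 0 in every library and miR-9-5p at 1.03 to 23.9 CPM, the spermatogenic miR-34c-5p was at 0 and miR-449a-5p at 442 to 1060 CPM, and the liver miR-122-5p was at 0 in replicates 1 and 3 and at 0.994 CPM in replicate 2. The 3 muscle markers summed to 572 to 1040 CPM, the 4 leukocyte markers to 336 to 628 CPM, the 4 erythroid markers to 361 to 599 CPM and the 3 markers of early germ cells to 76.6 to 145 CPM. Most of the leukocyte sum was miR-150-5p, at 331 to 602 CPM, while miR-142a-3p was at 1.03 to 11.5 CPM and miR-142a-5p at 1.15 to 3.10 CPM. Most of the erythroid sum was miR-451a, at 317 to 519 CPM, with miR-144-3p at 4.14 to 8.04 CPM. Of the early germ cell markers, miR-291a-3p and miR-295-3p were at 0 in replicates 1 and 3. The part of each of these cell types in the cluster's levels was not tested.

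In RefSeq, on the build GRCm38.p6, the cluster spans chr12:109709060-109743795, 34.7 kb. It holds 36 precursors that fit the rule, all but Mir299b on the plus strand, and 31 of them had at least 1 count. The 5 without any count were Mir299b, Mir758, Mir679, Mir654 and Mir453. RefSeq gave a mature sequence for 50 of the 53 identifiers. The 6 mature members with a mean of at least 1000 CPM are shown first because they held 94.4% of the mature counts of the cluster. Letters run 5′ to 3′ with the seed in capitals.

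miR-411-5p: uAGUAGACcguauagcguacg
miR-379-5p: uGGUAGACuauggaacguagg
miR-154-5p: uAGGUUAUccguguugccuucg
miR-382-5p: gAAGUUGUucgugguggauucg
miR-541-5p: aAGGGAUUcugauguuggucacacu
miR-369-5p: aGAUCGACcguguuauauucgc

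miR-411-5p lies at chr12:109710190-109710210 and miR-379-5p at chr12:109709065-109709085, in neighbouring precursors outside other annotated genes. These sequences have the same base at 14 of 21 positions and at 6 of the 7 seed positions. The other 4 come from precursors within Mirg, at chr12:109738438-109738459 for miR-154-5p, chr12:109733781-109733802 for miR-382-5p, chr12:109742422-109742446 for miR-541-5p and chr12:109743431-109743452 for miR-369-5p. None of the 6 shared bases 2 to 8 with any of the other 441 counted mature miRNAs that have a RefSeq sequence.

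The opposite arms of the leading pair are shown because they share the seed AUGUAAC and have the same base at 20 of 22 positions.

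miR-411-3p: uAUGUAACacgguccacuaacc
miR-379-3p: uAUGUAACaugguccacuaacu

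Among members with a mature count and a RefSeq sequence, the only other shared seed was GGUUGUC, in miR-410-5p and miR-494-5p.

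miR-410-5p: aGGUUGUCugugaugaguucg
miR-494-5p: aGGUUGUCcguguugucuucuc

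Their mean mature levels were 76.7 CPM for miR-410-5p and 5.63 CPM for miR-494-5p. Outside the cluster, miR-672-5p shared the seed of miR-377-5p and stood at 743 ± 31.9 CPM (SD, n = 3), against 44.7 CPM for miR-377-5p. miR-370-5p shared the seed of miR-1193-3p, at 23.4 ± 10.7 CPM against 34.3 CPM. A uracil as the first base, which Argonaute proteins are known to prefer, was present in 17 of 46 mature members with a sequence (37.0%) and in 190 of 442 mature miRNAs in all (43.0%). By counts, taken over miRNAs with a RefSeq sequence only, the order was the other way. Those with a first uracil held 91.0% ± 1.27 of such mature counts in the cluster and 79.6% ± 1.28 in all. In the cluster the share was 37.2% ± 5.09 once miR-411-5p and miR-379-5p were left out.

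Together the mature members took 49090, 68263 and 50704 counts in replicates 1, 2 and 3. This was 5.64% (95% Clopper-Pearson interval 5.59 to 5.68), 6.79% (6.74 to 6.84) and 5.25% (5.20 to 5.29) of the mature counts, with a mean of 5.89% ± 0.801 (SD, n = 3). The intervals of the 3 libraries did not overlap and cover counting error only, since copies made by PCR were not told apart. Of the clean reads the cluster took 0.212% ± 0.0443. Hairpin members took 4.995%, 5.51% and 4.92% of the hairpin counts, with a mean of 5.14% ± 0.322. The mature share was the higher in every library, by 0.641, 1.27 and 0.326 percentage points (mean 0.747 ± 0.483), and an exact permutation test that flips the sign of each library's difference, two-sided, gave p = 0.25. With 3 libraries 0.25 is the smallest p that this sign-flip test can give. Of 20 such tests, 19 gave it, with a Benjamini-Hochberg adjusted p of 0.263 in this exact test, so that no comparison here could pass a threshold of 0.05, and the values of the 3 libraries are given instead. The mean difference was 1.49 percentage points with miR-127-3p left out of both denominators and 0.483 without replicate 2. Its direction rested on miR-411-5p and miR-379-5p. The members without this pair held 0.898%, 0.977% and 0.891% of the mature counts and a larger share of the hairpin counts in every library.

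miR-411-5p was the most abundant member. Its mature counts were 27566, 41376 and 31005, which is 31650, 41136 and 32081 CPM, with a mean of 34956 ± 5357 CPM and rank 6 among all mature miRNAs. Replicate 2 was the highest, and the other two libraries were close to each other. miR-379-5p followed at 15735, 16958 and 11475 CPM (mean 14723 ± 2878, rank 14), with replicate 3 the lowest. Within the cluster miR-411-5p held 59.3% ± 2.74 of the mature counts and miR-379-5p 24.9% ± 3.02, and the pair held 84.1%, 85.6% and 83.0%. The log2 ratio of miR-411-5p to miR-379-5p was 1.01, 1.28 and 1.48 (mean 1.26 ± 0.24) in mature counts and 1.12, 1.44 and 1.83 (mean 1.46 ± 0.36) in hairpin counts, and thus above 0 each time (exact sign-flip test, p = 0.25 for both). The pair was ordered by mean mature level in these same libraries, so the sign of the mature ratio was largely set beforehand.

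The step to the next member was larger than that within the pair. The log2 ratio of miR-379-5p to miR-154-5p was 3.01, 2.86 and 2.49, again between members placed in order of their mean mature level. miR-154-5p had 1947, 2335 and 2037 CPM (mean 2107 ± 203, rank 46). miR-382-5p had 1758, 1403 and 1136 CPM (mean 1432 ± 312, rank 56) and was below miR-154-5p in every library. miR-541-5p had 1323, 1073 and 1323 CPM (mean 1240 ± 144.5, rank 60), and miR-369-5p had 947, 1258 and 1289 CPM (mean 1165 ± 189, rank 65). The order of these last 3 changed between libraries, since miR-382-5p was above miR-541-5p in 2 of 3 libraries and miR-541-5p above miR-369-5p in 2 of 3.

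**Figure D1:**
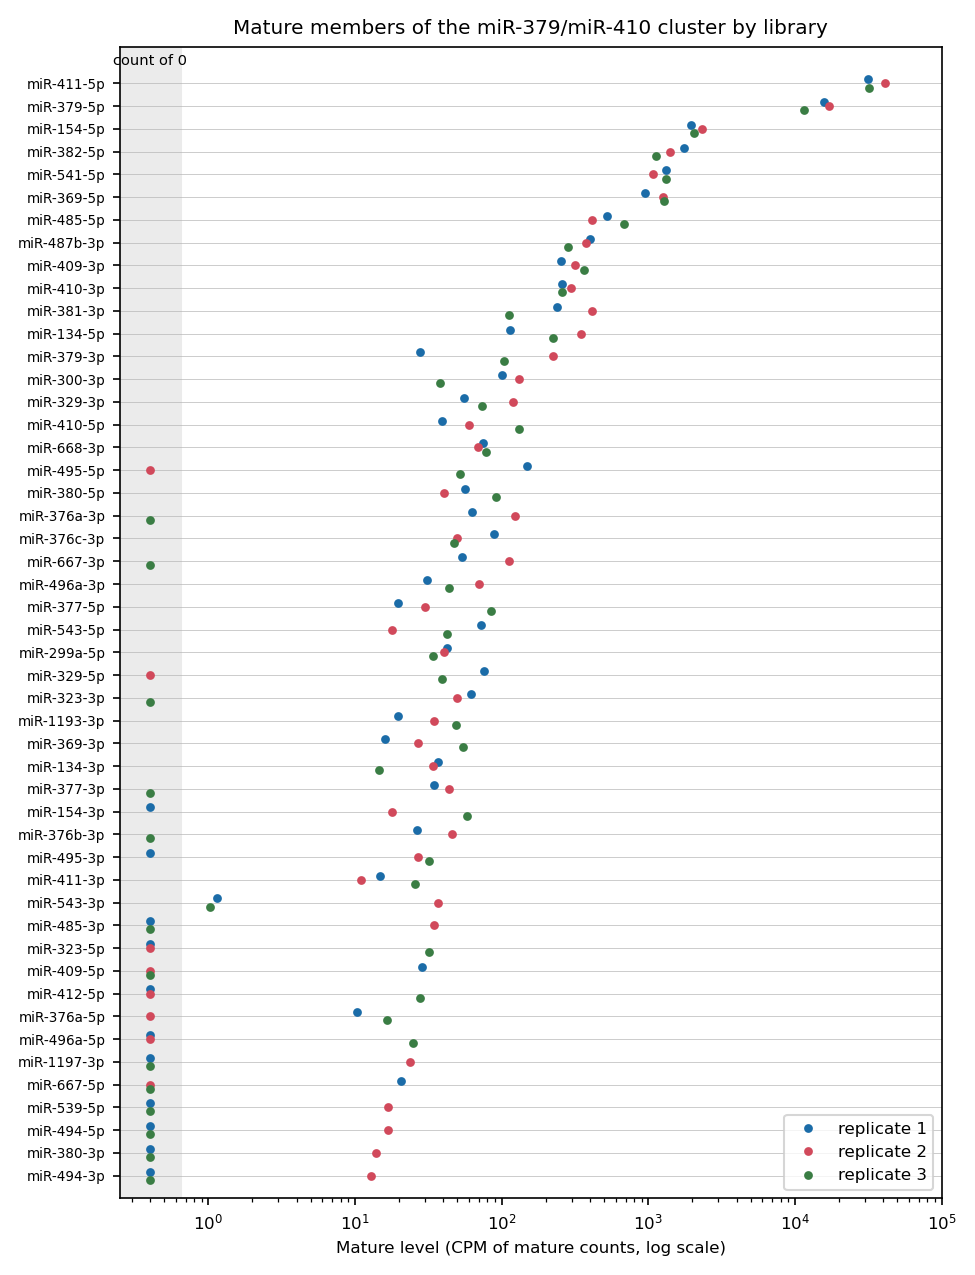
Mature level of each of the 49 mature members in the 3 libraries, in CPM of mature counts on a log axis, ordered by mean, with counts of 0 drawn in the grey strip. miR-411-5p and miR-379-5p stand apart at the top in every library, 4 more members have a mean of at least 1000 CPM, and every member with a count of 0 in a library has a mean under 100 CPM.

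Of the other 43 mature members, 7 had a mean of 100 to 1000 CPM and 36 a mean under 100 CPM. Those between included miR-134-5p, which limits the size of dendritic spines in neurons, at 114, 348 and 223 CPM, and the 3p arm of miR-410, after which the cluster is named, at 257, 298 and 259 CPM. Thus 2 members were enough for 80% of the mature counts of the cluster, 4 for 90%, 7 for 95% and 22 for 99%. In the whole catalogue of 604 mature entries, 3 of the 49 mature members were among the 50 most abundant and 7 among the top 100. Without miR-411-5p the cluster took 2.39% ± 0.324 of the mature counts, and without both leading members 0.898%, 0.977% and 0.891%.

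Counts were present in every library for 28 of the 49 mature members (57.1%), against 54.1% of all 604 mature entries. A further 10 members were counted in exactly 2 libraries and 11 in exactly 1, against 104 and 173 of all 604 mature entries. At least 10 counts in every library were reached by 27 members (55.1%), against 45% of all mature entries. Among hairpin entries, 31 of 50 (62%) were counted in every library, against 55.6% of all 743. Hairpin counts only were found for 4 identifiers (miR-376b-5p, miR-412-3p, miR-299a-3p and miR-381-5p) and mature counts only for 3 (miR-1197-3p, miR-494-5p and miR-543-3p). No share over all identifiers is given for these counts.

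Along the chromosome the levels were high at the first 2 precursors, low in the middle and, by group sum and median, intermediate at the far end. This grouping was made after the levels had been seen and is a description. Mir379 and Mir411, whose starts lie 1.115 kb apart, held 84.5% ± 1.37 of the mature and 75.9% ± 2.02 of the hairpin counts that fell on the cluster. The next 21 precursors, of which 17 were counted, held 2.35% ± 0.481 of the mature and 4.69% ± 0.905 of the hairpin counts, and none of them had a mean above 354 CPM of mature counts, both arms summed. The last 13 precursors lie within Mirg, at chr12:109729764-109749460 in GENCODE vM21, 8 in exons and 5 in introns. Of these, 12 were counted, and they held 13.2% ± 1.69 of the mature and 19.4% ± 1.94 of the hairpin counts. The median precursor was at 322 CPM within Mirg and at 47.9 CPM among the 21 before it. Levels within Mirg were mixed, from no count (Mir453) and 9.31 CPM (Mir412) to 2132 CPM (Mir154). Mir487b, before Mirg, stood at 354 CPM and thus above the median within Mirg.

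**Figure D2:**
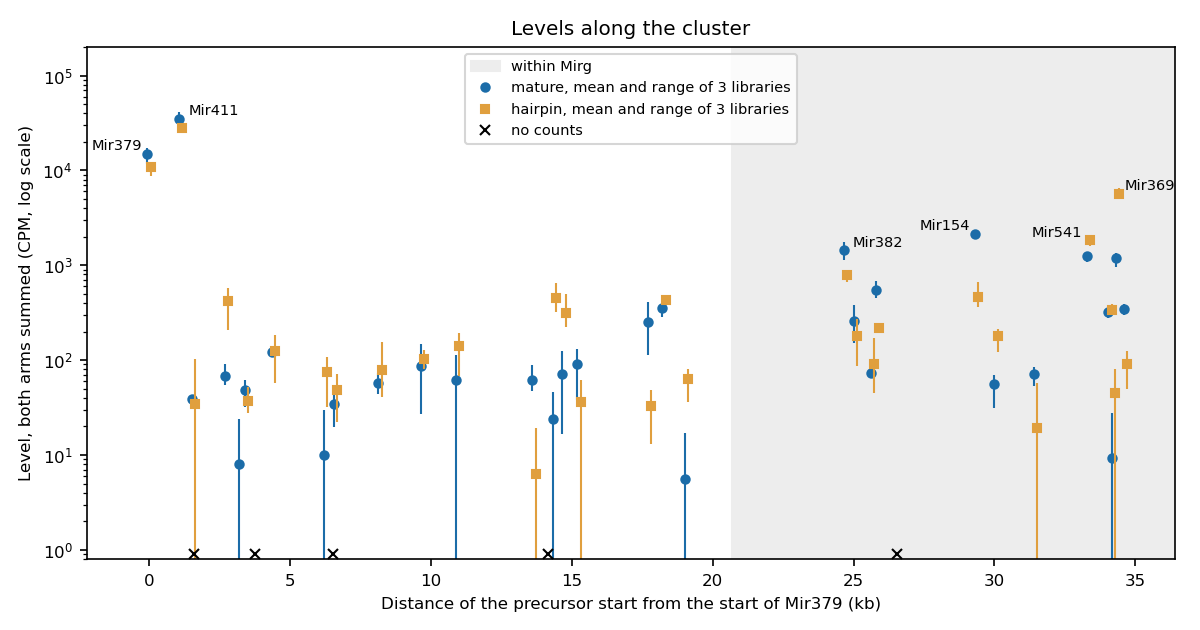
Level of each precursor, both arms summed, against the distance of its start from that of Mir379 in kb, with the mean (symbol) and range (line) of the 3 libraries in CPM on a log axis, for mature (circles) and hairpin (squares) counts, and the grey area marking Mirg. Lines that reach the lower edge include a library with a count of 0, and crosses mark precursors without counts. Mir379 and Mir411 stand above all others, and the means of the 21 precursors between Mir411 and Mirg stay at or below 354 CPM of mature counts.

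The neighbouring miRNAs of the domain were set beside the cluster to place its level. The Rtl1-antisense miRNAs, which lie opposite the coding sequence of the retrotransposon-like gene Rtl1, took 31.6%, 23.6% and 23.3% of the mature counts (mean 26.2% ± 4.70), nearly all of it miR-127-3p with 26.0% ± 4.70. The log2 ratio of the miR-379/miR-410 cluster to them was -2.49, -1.80 and -2.15 (mean -2.15 ± 0.34, exact sign-flip test, p = 0.25). Without miR-127-3p the direction turned and the log2 ratio was 5.47, 5.43 and 5.54 (mean 5.48 ± 0.05). This leaves the leading entry out of the Rtl1-antisense list only, while miR-411-5p and miR-379-5p stay in the cluster. The other miRNAs of the domain took 0.323% ± 0.0294. The 3 lists together made up 37.6%, 30.7% and 28.9% of the mature counts, and replicate 1, which was highest in the Rtl1-antisense list, was not the highest in the cluster.

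The arm of the hairpin that was counted differed between precursors. The 5p arm carried 96.7%, 96.0% and 96.9% of the cluster's mature counts (mean 96.5% ± 0.466) and 77.7% ± 4.90 without the leading pair. Over all mature counts with an arm in the name it carried 64.5% ± 4.23. Of the 31 precursors with mature counts, 18 had both arms counted and 13 a single arm. At least 10 counts over both arms in every library were reached by 16, and the log2 ratio of 3p to 5p counts, with 0.5 added to each, was computed for these. The 5p arm was the higher in every library for 7 of the 16 (background 48.2% of 112 precursors), the 3p arm for 3 (background 30.4%), and the libraries were mixed for the other 6. The median log2 ratio was -2.48 in the cluster and -1.92 over all 112.

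The lowest ratio was that of miR-411, with 13, 11 and 25 counts of the 3p arm against 27566, 41376 and 31005 of the 5p arm (log2 -11.00, -11.81 and -10.25). miR-154 had 0, 18 and 56 counts of the 3p arm against 1696, 2349 and 1969 of the 5p arm (mean log2 -7.95 ± 3.41). miR-485 had 0, 35 and 0 against 454, 418 and 656 (mean log2 -7.92 ± 3.78). All libraries of these 3 precursors were far below 0. At the other end, miR-409 had 220, 319 and 354 counts of the 3p arm against 25, 0 and 0 of the 5p arm (mean log2 7.30 ± 3.63). miR-496a had 27, 70 and 42 against 0, 0 and 24 (4.57 ± 3.34). miR-329 had 48, 121 and 71 against 66, 0 and 38 (2.79 ± 4.50), so that its libraries did not share a direction. miR-410 was more even, with 257, 298 and 259 CPM of the 3p arm against 39.0, 59.7 and 131 CPM of the 5p arm.

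**Figure D3:**
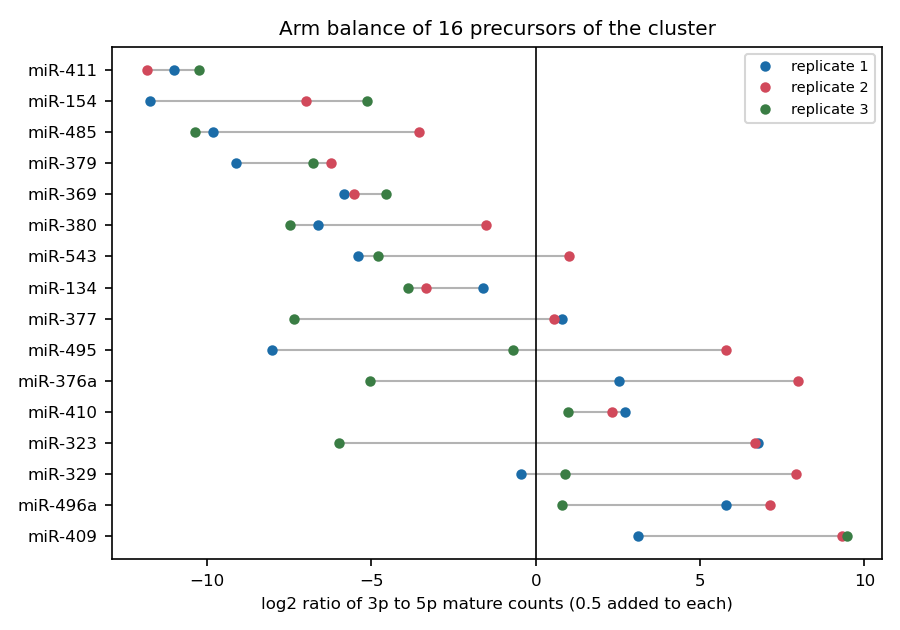
Log2 ratio of 3p to 5p mature counts (0.5 added to each) for the 16 precursors with at least 10 counts over both arms in every library, 1 point per library and a line over their range, ordered by mean. The points of 7 precursors lie to the left of 0 in every library, 3 to the right and 6 on both sides.

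The catalogue lists many identifiers under a hairpin type as well as a mature type, and the study's methods do not define how reads were divided between them. The hairpins of 3 precursors are shown, with the 5p and 3p mature arms in capitals, because their arms stood out in the hairpin counts.

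Mir411, chr12:109710175-109710256, plus strand: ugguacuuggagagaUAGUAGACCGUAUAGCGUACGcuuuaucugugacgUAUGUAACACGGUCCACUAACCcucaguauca
Mir379, chr12:109709060-109709125, plus strand: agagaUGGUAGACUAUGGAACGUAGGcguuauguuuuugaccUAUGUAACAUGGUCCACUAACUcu
Mir369, chr12:109743418-109743496, plus strand: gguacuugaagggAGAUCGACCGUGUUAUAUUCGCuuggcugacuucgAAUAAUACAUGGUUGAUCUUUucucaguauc

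By hairpin CPM the first 5 members were miR-411-5p (25203, 30050 and 27581), miR-379-5p (11598, 11068 and 7752), miR-369-5p (5294, 5270 and 6467), miR-541-5p (1913, 1604 and 1958) and miR-379-3p (499, 936 and 921). Here miR-369-5p, the lowest of the 6 leading members by mature level, stood above all but the leading pair. The 5p arms carried 92.3% ± 0.891 of the hairpin counts.

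Among the 37 identifiers with at least 10 mature plus hairpin counts in every library, 11 (29.7%) had more hairpin than mature counts in every library, against 36.7% of all 395 such identifiers. Fewer hairpin than mature counts in every library were found for 19 (51.4%), against 35.4% of all, and 7 were mixed. The median log2 ratio of hairpin to mature counts was -0.67 in the cluster and 0.21 over all identifiers.

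The 3 members with the highest ratios were miR-376b-5p, miR-380-3p and miR-494-3p.

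miR-376b-5p: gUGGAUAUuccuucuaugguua
miR-380-3p: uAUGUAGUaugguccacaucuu
miR-494-3p: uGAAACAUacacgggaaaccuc

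miR-376b-5p had 270, 148 and 199 hairpin counts and no mature count (log2 8.64 ± 0.43). miR-380-3p had 252, 292 and 117 hairpin counts against 0, 14 and 0 mature counts (7.06 ± 2.43), and miR-494-3p had 16, 52 and 62 against 0, 13 and 0 (4.66 ± 2.53). The sequence of miR-376b-5p differs from that of miR-376c-5p at a single one of 22 positions, so the split of reads between these near copies is uncertain. The same holds for miR-376a-3p and miR-376b-3p, with the same base at 18 of 21 positions, and for miR-300-3p and miR-381-3p, at 19 of 22.

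The lowest ratios were those of miR-410-5p, with 0, 1 and 2 hairpin counts (log2 -5.70 ± 0.39), miR-299a-5p, with 0, 1 and 0 (-5.69 ± 0.79), and miR-376c-3p, with 0, 0 and 11 (-5.32 ± 2.88). In the leading pair the ratio was nearly the same in each library, at -1.15, -1.17 and -0.96 for miR-411-5p and -1.26, -1.33 and -1.31 for miR-379-5p. miR-369-5p went the other way, with 2612, 3226 and 3735 hairpin against 825, 1265 and 1246 mature counts (log2 1.66, 1.35 and 1.58).

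**Figure D4:**
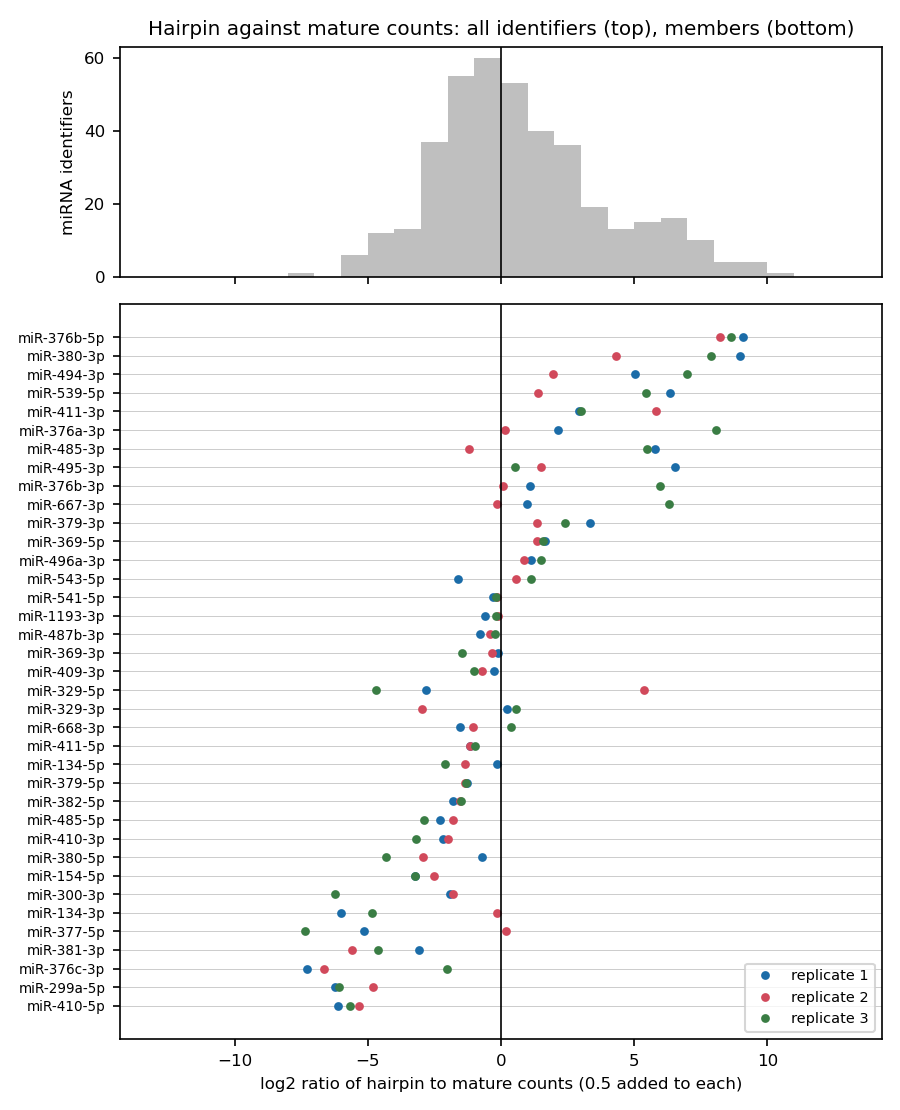
Log2 ratio of hairpin to mature counts (0.5 added to each) with, at the top, the number of all 395 identifiers in bins of their mean and, below, 37 members of the cluster with 1 point per library. The members run from -5.70 (miR-410-5p) to 8.64 (miR-376b-5p) in their means, within the range of all identifiers, and 19 lie left of 0 in every library.

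Hairpin counts were also less one-sided between the arms of the leading pair. For miR-411 the log2 ratio of 3p to 5p was -11.02 ± 0.78 in mature and -6.01 ± 1.07 in hairpin counts, a difference of 5.01 ± 1.71. For miR-379 it was -7.38 ± 1.54 and -3.72 ± 0.75, a difference of 3.66 ± 0.96. For miR-369 the hairpin counts were the more one-sided, with -7.47 ± 0.21 against -5.30 ± 0.67. For miR-380 the direction turned, from -5.20 ± 3.22 in mature to 4.50 ± 1.35 in hairpin counts. This rests on few counts, with mature 3p counts of 0, 14 and 0 against 49, 41 and 88 of the 5p arm. The hairpin counts of its 5p arm were 30, 5 and 4. Each of the 4 differences between hairpin and mature ratios had the same sign in every library (exact sign-flip test, p = 0.25 for each). These 4 precursors were chosen with their counts known, so the shared signs are a description, and no share over other precursors is given. Of the 3p arms that share a seed, miR-411-3p was at 14.9, 10.9 and 25.9 CPM of mature counts and miR-379-3p was the higher in every library. In hairpin counts miR-411-3p was at 207, 1054 and 353 CPM, below miR-379-3p in replicates 1 and 3 and above it in replicate 2 (mean log2 ratio -0.83 ± 0.86, exact sign-flip test, p = 0.5).

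For the 27 members with at least 10 mature counts in every library, the highest CPM divided by the lowest had a median of 2.18, against 1.73 over all 272 such miRNAs, and it ranged from 1.15 to 8.15 with 14 members (51.9%) above 2, against 40.4% of all. The 6 members with a mean of at least 1000 CPM lay between 1.20 and 1.55, and no member with a ratio above 2 had a mean over 254.4 CPM. The medians of the members and of all miRNAs were not matched for level. At a minimum of 100 counts in every library the median of the members was 1.40, with no value over all miRNAs beside it. Members of low level lay at both ends, and the narrowest was miR-668-3p, with 74.6, 68.6 and 78.6 CPM. The widest was miR-379-3p, with 27.6, 225 and 103 CPM, while its partner arm miR-379-5p differed by 1.48 times. miR-377-5p had 19.5, 29.8 and 84.8 CPM, and miR-543-5p had 72.3, 17.9 and 42.4 CPM. miR-381-3p had 239, 411.6 and 113 CPM, and the similar miR-300-3p had 101, 131 and 38.3 CPM, both with replicate 3 the lowest.

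The members did not all have their highest level in the same library. Of the 27, 6 (22.2%) were highest in replicate 1, 10 (37.0%) in replicate 2 and 11 (40.7%) in replicate 3, against 27.9%, 40.8% and 31.2% of all 272. A count of 0 in 1 library beside at least 30 counts in another was seen for 11 of 49 mature members (22.4%), against 15.6% of all 604 mature entries. Chosen after their values had been seen, miR-495-5p had 130, 0 and 50 counts and its partner miR-495-3p had 0, 27 and 31. miR-376a-3p had 55, 125 and 0 mature counts, and its hairpin counts were 243, 138 and 133, so that the library with a mature count of 0 still held hairpin counts. In 6 of the 11 members a library at 0 in mature counts had hairpin counts, and no share over all entries is given for this.

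**Figure D5:**
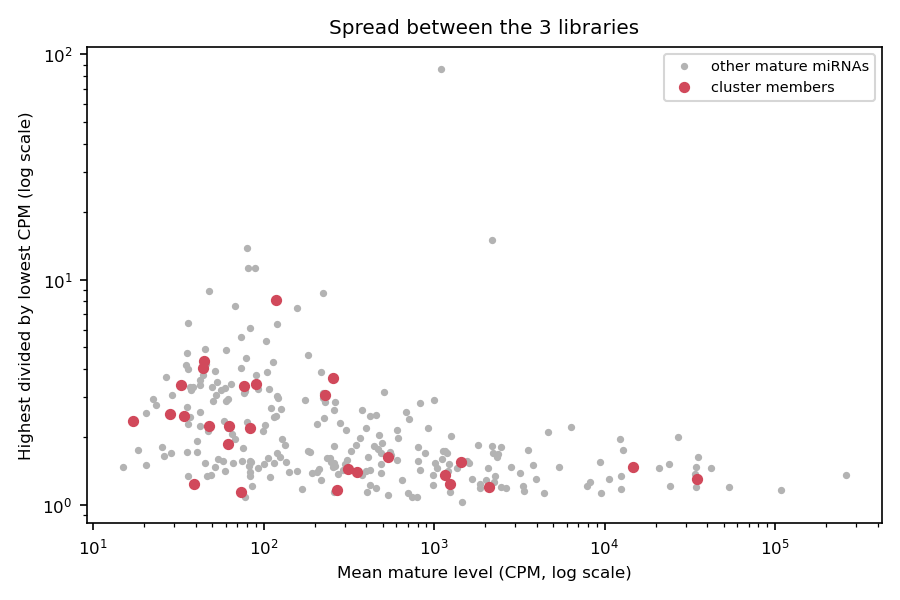
Highest CPM divided by the lowest over the 3 libraries against the mean mature level, both on log axes, for all 272 mature miRNAs that reached 10 counts in each library, with the 27 cluster members in red. The members above 1000 CPM lie between 1.20 and 1.55, and miR-379-3p, at 8.15, is the widest of the members.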

How the data were processed

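Small RNA of EVs from PND7 mouse testis was sequenced in 3 libraries on the BGISEQ-500 platform. After low-quality reads had been removed, the authors used Bowtie2 and cmsearch for mapping and assigned every read to 1 class, with miRBase ahead of the other databases. The submitters' processing notes name mm10, and tool versions are not given in the sources used here. The authors deposited counts, as whole numbers of reads without normalization, for each small RNA, and each class as a percent of clean reads. The deposited column with UMI in its header equals, on rows that name a small RNA, the counts scaled to clean reads, and it was not used. RefSeq (GRCm38.p6) gave sequences and positions, and GENCODE vM21 gave Mirg.

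Members were taken by name. The members and lists were chosen with earlier results of these data known. Counts were scaled to CPM of the mature (or hairpin) counts of each library, and log2 ratios had 0.5 added to each count. Ratios between arms, types and libraries needed at least 10 counts in every library. The libraries came from separate preparations, and differences within libraries were tested by an exact permutation of their signs, two-sided, in Python 3.11.15 with SciPy 1.17.1. Intervals are exact binomial (Clopper-Pearson, 95%) and cover counting error only. A count of 0 was read as up to 3 counts. Members named with values were those with a mean of at least 1000 CPM, the 5 highest in hairpin counts, those sharing a seed, the 3 precursors or members at each end of the ratios of arms and of hairpin to mature counts, and the 5 with the widest spread. Named outside this rule, after their values had been seen, were miR-134-5p, miR-410-3p, both arms of miR-495, miR-376a-3p, miR-668-3p, and the pairs with a seed shared outside the cluster. The precursors Mir412 and Mir487b were named in the same way, as were the 4 precursors whose arms were compared between hairpin and mature counts. Alternatives changed the denominator, the minimum count, the scaling (median of ratios, or the trimmed mean of M-values in edgeR 4.0.16, used for scaling only), the type of entry and the libraries. The arm calls, type calls and spread were tested on simulated data that held counting error only, without the larger differences seen between these libraries.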

Additional observations from a re-analysis of the deposited data

Results flagged for a closer look

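Reads of the domain also appear in the Rfam classes, which the comparisons did not use, in some or all libraries above the limit that a count of 0 allows. Reads on precursor families of the cluster numbered 27, 74 and 81 for mir-134 in replicates 1, 2 and 3. In the same order of replicates they numbered 17, 25 and 1 for mir-154, 13, 1 and 31 for mir-299, and 0, 13 and 19 for mir-541. Reads on the C/D snoRNA family SNORD113/SNORD114, whose genes lie in the same domain, numbered 3093, 1793 and 1708, or 1.24% ± 0.106 of the snoRNA reads. There is no control library to set them against.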

How the results depend on the processing

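No paired analysis was possible because the libraries form a single group, so their replicate numbers pair them with no other group (the tests within a library set each library against itself). Of the recomputed values, 53 kept their direction and side of the threshold or, for values and counts without a test, stayed within 1 SD or 1.5 times, while 9 moved past those limits and 1 turned its direction. Among the former, the mature minus hairpin share (0.747 percentage points) was 1.49 without miR-127-3p in both denominators and 0.483 to 0.957 with a replicate left out, the 0.483 without replicate 2. Leaving out miR-411-5p and miR-379-5p, which turned its direction in every library, was not among the recomputed values. The cluster's share of mature counts (5.89%) was 3.38% of all miRNA counts and 7.97% without miR-127-3p in the denominator. In the 3.38% the cluster's own hairpin counts enter the denominator only. With mature and hairpin counts summed for both the cluster and the total, the share was 5.61%, within those limits. The log2 ratio to the Rtl1-antisense miRNAs (-2.15) was 5.48 without miR-127-3p, the entry that makes up most of that list. The leading pair of the cluster was kept in that ratio. The 49 mature members counted fell to 28 when counts were asked for in every library and to 27 with at least 10 counts in each. The precursors with the 3p arm higher in every library (3) were 9 with mature and hairpin counts summed and 3 to 5 with a replicate left out, the 5 without replicate 3. The members with more hairpin than mature counts (11) were 6 at a minimum of 100 counts. The median ratio of the highest to the lowest library (2.18) was 1.40 at a minimum of 100 counts and 1.35 to 1.62 with a replicate left out, the 1.35 without replicate 3, where only 2 libraries are compared. Scaling by size factors moved no count of members by over 1.5 times. With 3 libraries no test can go below p = 0.25 (exact sign-flip permutation test), and members under 100 CPM rest on few counts.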
